A study of Bos taurus with 10 samples.

Results

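The small leucine-rich proteoglycans of the lactating bovine udder were compared between glands of cows that had mastitis in another gland and glands of healthy cows. The family was taken as 10 genes chosen by name: OGN, LUM, DCN, BGN, FMOD, ASPN, PRELP, KERA, OMD and EPYC. Every probe set whose only gene symbol in the platform annotation was one of these was used, which gave 12 probe sets of the 10 genes among 24016 probe sets on the array. BGN and PRELP had 2 probe sets each and the other genes 1 each. Once the dimmest 40% of probe sets by mean value had been dropped, 8 of the 12 probe sets, of 6 of the 10 genes, remained for the main test among 14409 probe sets.

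Small leucine-rich proteoglycans are secreted proteins of the extracellular matrix, built on a curved core of leucine-rich repeats. Many bind collagen fibrils and set their spacing and width, and several also bind growth factors of the TGF-beta family or receptors of innate immunity. Most are made by fibroblasts and other connective tissue cells, and decorin, biglycan and asporin form one class, lumican, fibromodulin, PRELP, keratocan and osteomodulin another, and osteoglycin and epiphycan a further class.

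The tissue came from 10 primiparous German Holstein Frisian cows in mid lactation, with no history of clinical mastitis and milk of every gland free of mastitis pathogens, whose oestrus had been synchronized with Cloprostenol and whose udders had been milked out with Oxytocin. In the 5 cows of the neighboring group, a different gland had been inoculated with 500 CFU of E. coli 1303, a bovine mastitis isolate, in 2 ml saline, and the sampled glands had not received bacteria. The 5 cows of the healthy group were not inoculated. The text of the study describes control samples, too, as combined from 2 glands of a cow. Which of the healthy arrays were pools is not given here. Both groups are labelled 24 h, which for the neighboring group is the time from inoculation to sampling, and each cow gave 1 array. By the methods of the study, neighboring 1, 2, 3 and 5 were pools of a saline-treated and an untreated gland of a cow, neighboring 4 was a single untreated gland, and the saline and the infection of the same udder cannot be told apart in the pools.

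Milk protein genes had the values of secreting tissue, with means over 6 genes from 14.3 to 14.4 on every array. Between arrays, values of all probe sets correlated with Pearson's r from 0.971 to 0.992. The study's methods had set aside neighboring 5, as a biological outlier, and healthy 3, as a technical outlier. All 10 arrays are used here, and the fit of the other 8 is given beside each member. The mean of the hybridization controls, bacterial and phage transcripts added to the hybridization mix, was 10.2 to 10.7 on the neighboring and 10.4 to 10.8 on the healthy arrays and differed by -0.29 (two-sided exact permutation test p = 0.0397). The 3′ to 5′ differences of actin, gapd and ef1a gave exact permutation p-values of 0.325, 0.159 and 0.881.

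Of the 6 genes past the filter, 4, OGN, LUM, PRELP and FMOD, were lower in neighboring glands, by 2.09-fold to 3.37-fold. BGN and DCN did not pass the test. In the fit over all 14409 probe sets, 5.37% were lower and 7.16% higher at an adjusted p under 0.05, and no member was higher. Of 14409 probe sets, 3.48% had all neighboring arrays below all healthy arrays, against 3 of the 8 member probe sets. In tissue samples, fewer cells of a type and less RNA per cell cannot be told apart.

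OGN encodes osteoglycin, or mimecan, a secreted protein that takes part in collagen fibril formation. Its log2 values were 7.32, 7.90, 7.92, 7.29 and 7.93 on neighboring 1 to 5 and 9.61, 9.82, 9.35, 9.19 and 9.15 on healthy 1 to 5. Every neighboring array was more than 1 log2 unit below every healthy array. The means were 7.67 ± 0.34 and 9.42 ± 0.29 (SD, n = 5 each), and OGN fell by 1.75 on the log2 scale (SE 0.18, limma adjusted p = 0.00157), which is 3.37-fold lower. With the 8 arrays of the methods, OGN fell by 1.84 (adjusted p = 0.000322), in a fit that called 12% of probe sets lower and 17.7% higher.

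**Figure D1:**
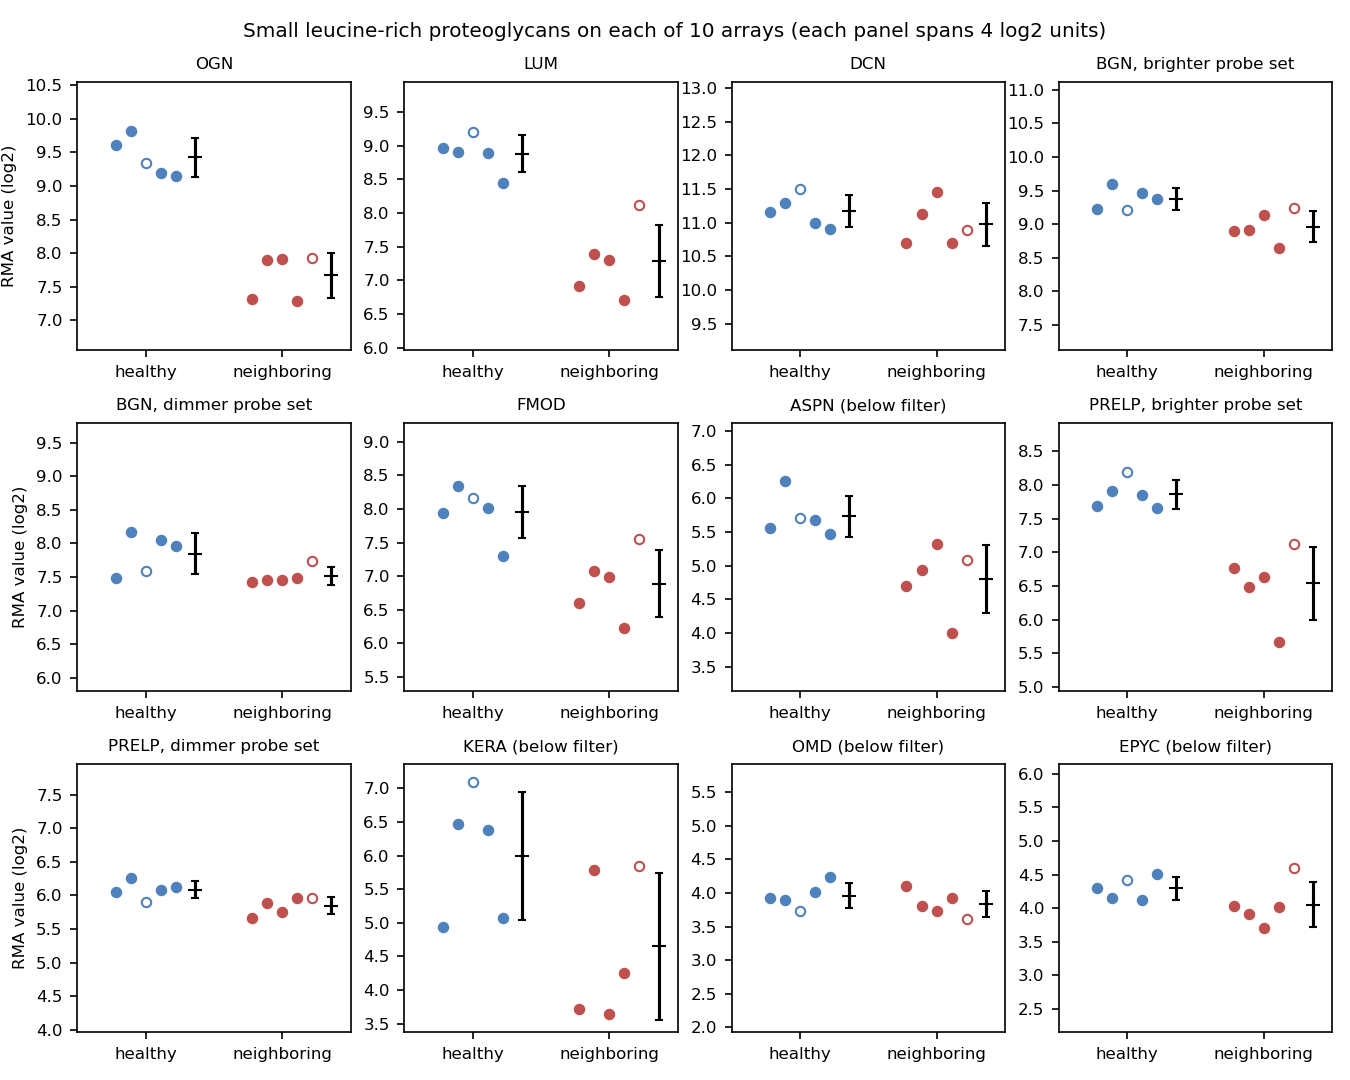
Log2 RMA value (vertical axis) of each of the 12 probe sets of the 10 genes, with healthy arrays 1 to 5 in blue and neighboring arrays 1 to 5 in red, left to right, and the mean with SD over 5 arrays in black; open circles are healthy 3 and neighboring 5, which the methods of the study left out. OGN and LUM show a gap between the groups, with OGN at 9.15 or more on healthy and at 7.93 or less on neighboring arrays, while the DCN values of both groups lie in 1 range.

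LUM encodes lumican, a keratan sulfate proteoglycan that binds collagen fibrils. It read 6.92, 7.39, 7.30, 6.71 and 8.12 on neighboring 1 to 5 against 8.97, 8.91, 9.20, 8.89 and 8.44 on healthy 1 to 5. The groups did not overlap, but neighboring 5 came within 0.4 log2 units of healthy 5. LUM fell by 1.60 (SE 0.23, means 7.29 ± 0.54 and 8.88 ± 0.28, adjusted p = 0.0117), which is 3.02-fold lower, and by 1.72 with the 8 arrays of the methods (adjusted p = 0.000212).

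PRELP encodes a basic member of the family that links basement membranes to collagen. Its brighter probe set read 6.77, 6.49, 6.64, 5.67 and 7.13 on neighboring 1 to 5 and 7.68, 7.92, 8.19, 7.85 and 7.66 on healthy 1 to 5. All neighboring values were below all healthy values, and neighboring 4 was the lowest by far. The brighter probe set fell by 1.32 (SE 0.22, means 6.54 ± 0.54 and 7.86 ± 0.21, adjusted p = 0.0176), which is 2.50-fold lower, and fell by 1.39 with 8 arrays (adjusted p = 0.00133). Its call was lost without neighboring 2 (adjusted p = 0.0524) or neighboring 3 (adjusted p = 0.0559). The dimmer probe set read 5.67 to 5.97 on neighboring and 5.91 to 6.26 on healthy arrays, with a difference of -0.24 (SE 0.10, adjusted p = 0.111), or -0.31 with 8 arrays (adjusted p = 0.0390). The PRELP probe sets thus had the same sign and unequal sizes.

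FMOD encodes fibromodulin, a keratan sulfate proteoglycan that takes part in the cross-linking of collagen. It read 6.60, 7.07, 6.99, 6.23 and 7.55 on neighboring 1 to 5 and 7.94, 8.34, 8.16, 8.02 and 7.31 on healthy 1 to 5. The groups overlapped, since neighboring 5 was above healthy 5. FMOD fell by 1.06 (SE 0.24, means 6.89 ± 0.50 and 7.95 ± 0.39, adjusted p = 0.0272), which is 2.09-fold lower, and by 1.18 with 8 arrays (adjusted p = 0.00496). Its call was lost without any 1 of 7 arrays, neighboring 1, 2, 3 or 4 or healthy 1, 2 or 4, with adjusted p-values from 0.0542 to 0.0711.

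BGN encodes biglycan, which carries chondroitin or dermatan sulfate chains and is known as a ligand of TLR2 and TLR4 when it is free of the matrix. Its brighter probe set read 8.90, 8.91, 9.13, 8.65 and 9.24 on neighboring 1 to 5 and 9.22, 9.60, 9.21, 9.47 and 9.37 on healthy 1 to 5. Only neighboring 5 reached into the healthy range. The difference of -0.41 ± 0.12 (SE) narrowly missed the threshold (adjusted p = 0.0509), and BGN fell by 0.52 with 8 arrays (adjusted p = 0.0121) and by 0.48 without neighboring 5 alone (adjusted p = 0.0138). The dimmer probe set read 7.43, 7.46, 7.46, 7.49 and 7.74 on neighboring 1 to 5 and from 7.48 to 8.17 on healthy arrays, with a difference of -0.33 ± 0.14 (SE, adjusted p = 0.119), or -0.46 with 8 arrays (adjusted p = 0.0325).

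DCN encodes decorin, which carries a single chondroitin or dermatan sulfate chain and binds collagen and TGF-beta. It read 10.70, 11.13, 11.45, 10.69 and 10.89 on neighboring 1 to 5 and 11.15, 11.30, 11.51, 11.00 and 10.91 on healthy 1 to 5. The groups overlapped, with neighboring 3 close to the highest healthy array. The difference was -0.20, with a 95% interval of 0.35 to either side (adjusted p = 0.406), and -0.09 with 8 arrays, with 0.38 to either side (adjusted p = 0.704).

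The 4 genes below the filter had means over all arrays under 5.71, the lowest mean kept. Of the probe sets near this limit, ASPN at 5.27 was left out and the dimmer probe set of PRELP at 5.97 was kept. ASPN encodes asporin, a relative of decorin with a stretch of aspartates, which binds TGF-beta. It read 4.69, 4.94, 5.33, 4.0 and 5.08 on neighboring 1 to 5 and 5.56, 6.26, 5.71, 5.68 and 5.48 on healthy 1 to 5, with no overlap between the groups. In a fit of all 24016 probe sets, which called 3.04% lower, ASPN was lower by 1.90-fold, with a log2 difference of -0.93 ± 0.22 (SE, adjusted p = 0.0362), or -1.01 with 8 arrays (adjusted p = 0.0199).

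KERA encodes keratocan, known from the cornea, and had a wide spread. It read 3.71, 5.79, 3.64, 4.25 and 5.85 on neighboring 1 to 5 and 4.93, 6.47, 7.10, 6.38 and 5.07 on healthy 1 to 5. Its SD was 1.09 and 0.95, and in the fit of all probe sets its difference of -1.34 ± 0.52 (SE) did not pass (adjusted p = 0.123), nor did that of -1.37 with 8 arrays (adjusted p = 0.0676). OMD, osteomodulin, known from bone, read 3.61 to 4.10 on neighboring and 3.73 to 4.24 on healthy arrays (adjusted p = 0.506, with 8 arrays 0.465). EPYC, epiphycan, known from cartilage, read 3.71 to 4.60 and 4.11 to 4.51 (adjusted p = 0.310, with 8 arrays 0.0627). Whether values this low are signal of the transcript was not tested.

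**Figure D2:**
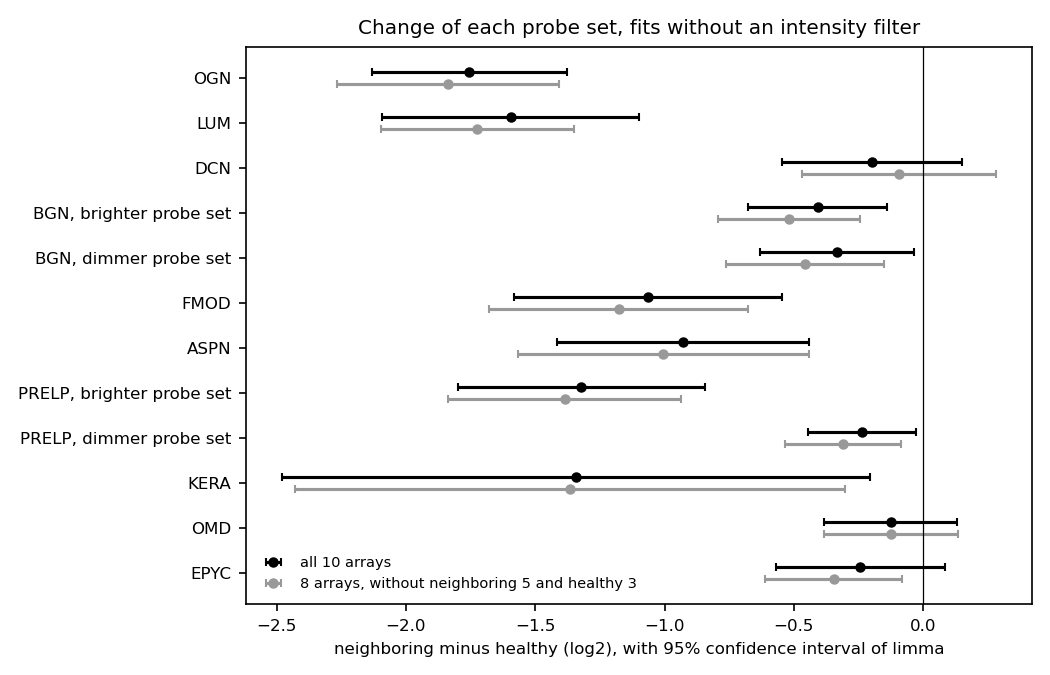
Log2 difference, neighboring minus healthy, of each of the 12 probe sets (horizontal axis) with the 95% confidence interval of limma, in black from 10 arrays and in grey from the 8 arrays of the methods, in fits of all 24016 probe sets. OGN and LUM have the lowest values of the 12, at -1.75 and -1.60 with 10 arrays, and the intervals of DCN and OMD include 0 in both fits.

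By the rule of the study's methods, which asks for more than a 2-fold change at an adjusted p under 0.01, OGN was the only member lower with all 10 arrays. In that fit 0.0486% of probe sets, 7 in all, were lower by this rule. With 8 arrays 1.05% were lower by it, and OGN, LUM, FMOD and PRELP were among them.

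The genes of the family, each read on its brightest probe set, did not change to the same extent. The 2 probe sets of PRELP changed by -1.32 and -0.24, so probe sets of 1 gene can also change unequally. The part of the probe sets in the differences between genes was not tested. OGN fell further than DCN, BGN and FMOD when the within-array difference to OGN was compared between groups. OGN was chosen for this comparison with earlier results of these data known. It had the largest fall of the 6 genes, so the negative sign of each difference was set by that choice. The change of OGN minus that of DCN was -1.56, minus that of BGN -1.35 and minus that of FMOD -0.69, and in each the neighboring arrays lay below all healthy arrays. Each had a two-sided exact permutation p of 0.00794, the smallest that 5 against 5 arrays can give, and 0.0132 after adjustment over 5 pairs. OGN minus LUM changed by -0.16 (exact p = 0.468) and OGN minus PRELP by -0.43 (exact p = 0.127, adjusted p = 0.159), and both overlapped between groups.

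All 15 pairs of the 6 genes were compared after these values had been seen. LUM changed by -1.40 relative to DCN, by -1.19 relative to BGN and by -0.53 relative to FMOD, each without overlap (exact permutation, adjusted p = 0.0149). For LUM minus FMOD the gap was narrow, from 0.565 on neighboring to 0.575 on healthy arrays. Relative to PRELP, DCN changed by 1.12 and BGN by 0.91 (adjusted exact p = 0.0149 each). Relative to FMOD they changed by 0.87 and 0.65, with overlap (adjusted exact p = 0.0357 each). The pairs LUM and PRELP, FMOD and PRELP, and DCN and BGN had adjusted exact p-values of 0.198, 0.238 and 0.306. LUM and DCN are next to each other in the bovine RefSeq gene order (assembly ARS-UCD2.0), with KERA and EPYC beyond LUM. FMOD and PRELP are adjacent too, as are OGN, OMD and ASPN in a row.

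Within the groups, some arrays had most members on 1 side of the group mean. Neighboring 4, the single untreated gland, was below the mean of its own group in all 6 genes, with a median deviation of -0.48. Neighboring 5 was above it in 5 of 6 genes (median 0.43), healthy 2 was above its group mean in 6 of 6 (median 0.17), and healthy 5 was below it in 6 of 6 (median -0.27). Neighboring 3 was above its group mean in 6 of 6 genes and neighboring 1 in 1 of 6. The other arrays were mixed, with 4 of 6 genes above in neighboring 2 and healthy 3, 3 in healthy 4 and 2 in healthy 1. Relative to the healthy mean, OGN, LUM and PRELP were at -2.14, -2.17 and -2.19 in neighboring 4. In neighboring 5 OGN was at -1.50, while LUM was at -0.76, PRELP at -0.73 and FMOD at -0.40. For LUM, PRELP, FMOD and OGN neighboring 5 was the neighboring array nearest to the healthy mean, while DCN was nearest in neighboring 2, at -0.04, and above it in neighboring 3, at 0.28.

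**Figure D3:**
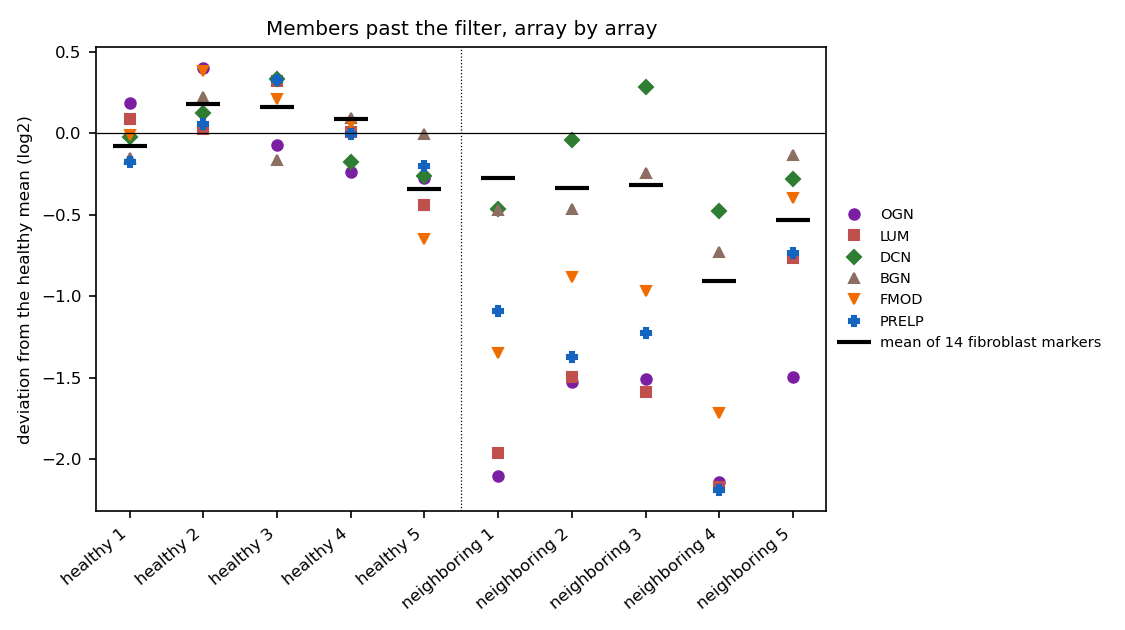
Deviation of each of the 6 genes past the filter from its mean over healthy arrays (vertical axis, log2), array by array, with the mean of 14 fibroblast marker genes as black bars. In neighboring 1 to 4 the points of OGN, LUM, PRELP and FMOD lie below the fibroblast bar and those of DCN and BGN near or above it, as in neighboring 4, where OGN is at -2.14 and DCN at -0.48.

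Genes with the most similar course over the 10 arrays were sought among 7054 other genes, by the root mean square (RMS) difference of log2 values after each gene was centred on its own mean. For OGN the nearest was LUM (RMS 0.30), followed by CNN1, the smooth muscle protein calponin, CCDC80, a matrix-associated secreted protein, CDH11, a cadherin of mesenchymal cells, and LOXL1, an enzyme that cross-links elastin (RMS 0.32 to 0.34). For LUM they were FXYD6, a regulator of the sodium pump, at 0.22, then NREP, PRELP, OGN and CCDC80. For DCN they were ACKR3, an atypical chemokine receptor, at 0.11, then CYP27A1, a sterol hydroxylase, UBE2E3, SCLY and CYREN. The group difference of each gene entered this measure, so a like difference is part of the choice.

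Of the other family members, CHAD, TSKU and OPTC were on the array. TSKU, which passed the filter, differed by -0.06 (adjusted p = 0.734), and CHAD and OPTC were below it.

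The collagens that these proteoglycans bind fell in part. Of 7 fibril collagen genes past the filter, 4 fell and 0 rose, where 5.37% of all probe sets were called lower and 7.16% higher. The list median was -0.61 against 0.05 over all 7055 genes tested and -1.19 over the 6 proteoglycan genes. COL3A1 of the fibrils of loose connective tissue went from 11.9 to 10.9 (change -1.02 ± 0.25 SE, adjusted p = 0.0296). COL1A2 and COL1A1, the chains of type I collagen, changed by -0.88 (adjusted p = 0.0469) and -0.65 (adjusted p = 0.0291), and COL5A2, which starts fibrils, by -0.61 (adjusted p = 0.0344). With 8 arrays COL1A2 was not called (adjusted p = 0.0788). With 1 array left out, COL1A2 lost its call in 9 of 10 fits, all but that without neighboring 5, COL5A2 in 8, and COL1A1 and COL3A1 in 7 each, with adjusted p-values up to 0.0962. COL6A1, COL6A2 and COL12A1 differed by -0.42, -0.18 and -0.14 and did not pass.

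The enzymes of the sugar chains that could be tested did not pass. Of 24 genes listed for the linkage region and for chondroitin and dermatan sulfate, 12 were on the array and 9 passed the filter. None of the 9 was called by limma and 0 had an unadjusted p under 0.05. They differed by -0.20 to 0.20 (median -0.05). Of 14 genes listed for keratan sulfate and tyrosine sulfation, 9 were on the array and 7 passed the filter. None of the 7 was called and 0 had an unadjusted p under 0.05, although PAPSS1, which makes the sulfate donor, fell by 0.50 with 8 arrays (adjusted p = 0.0455). Their differences with 10 arrays ran from -0.38 (PAPSS1) to 0.23 (TPST2, a tyrosine sulfotransferase).

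Among 8 proteases and inhibitors of matrix processing past the filter, PCOLCE alone was called. PCOLCE, which enhances the cleavage of procollagen, read 8.90 ± 0.23 in healthy and 7.92 ± 0.23 in neighboring glands without overlap (change -0.97 ± 0.14 SE, adjusted p = 0.00973). MMP2 differed by -0.54 (adjusted p = 0.0696) and TIMP1 by 0.46 (adjusted p = 0.205).

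Of 11 growth factors and receptors known to bind members of the family, 2 fell and 1 rose. Among all probe sets 5.37% were called lower and 7.16% higher. TGFB1, bound by decorin, biglycan, fibromodulin and asporin, fell by 0.73 (SE 0.17, adjusted p = 0.0290). CD14, a co-receptor for bacterial lipopolysaccharide that binds biglycan and lumican, fell by 1.00 (SE 0.25, adjusted p = 0.0324), and the hyaluronan receptor CD44 rose by 0.64 (SE 0.15, adjusted p = 0.0290). TLR2 and TLR4 differed by 0.40 (adjusted p = 0.200) and 0.10 (adjusted p = 0.539). With 1 array left out, TGFB1 lost its call in 8 of 10 fits (all but those without neighboring 5 or healthy 3), CD14 in 8 (all but neighboring 1 or 5) and CD44 in 7 (all but neighboring 5, healthy 2 or healthy 3), with adjusted p-values up to 0.0860. With 8 arrays, where 12% of all probe sets were called lower and 17.7% higher, the same 3 were called. MET, a growth factor receptor, then rose by 0.63 (adjusted p = 0.00616). Of 10 large, basement membrane and cell surface proteoglycans, GPC3, a glypican, fell by 0.54 (adjusted p = 0.0407), and the others, among them VCAN, HSPG2 and SDC2, differed by -0.39 to 0.13 without a call. The GPC3 call was lost in 9 of 10 fits with 1 array left out (adjusted p = 0.0513 to 0.0978), all but that without neighboring 5. With 8 arrays, where 12% of all probe sets were called lower, 4 of these genes fell. They were GPC3 by 0.59, SRGN by 0.50, SDC2 by 0.44 and HSPG2 by 0.35 (adjusted p = 0.0297, 0.0395, 0.0177 and 0.0366).

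**Figure D4:**
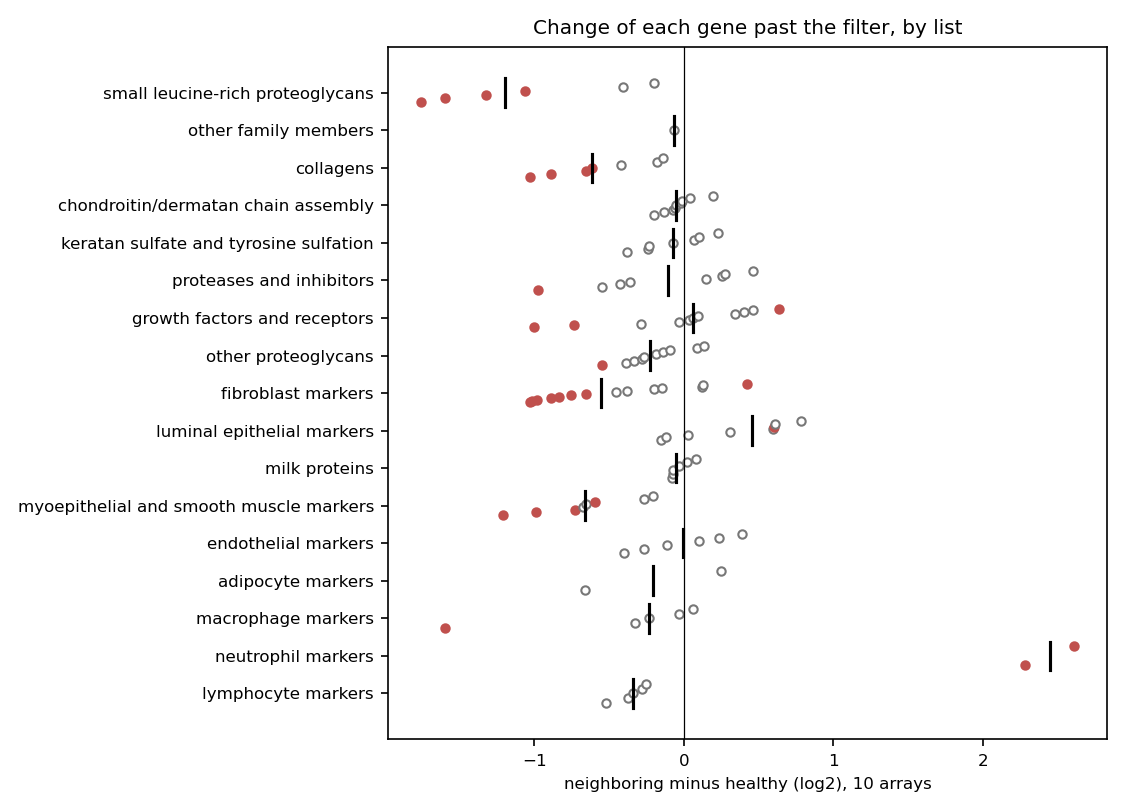
Log2 difference, neighboring minus healthy over 10 arrays (horizontal axis), of each gene past the filter, by gene list, read on its brightest probe set; filled points passed limma at an adjusted p under 0.05, open points did not, and black bars are list medians. The small leucine-rich proteoglycans have a median of -1.19, the collagens -0.61, the fibroblast markers -0.55 and the chondroitin and dermatan chain genes -0.05.

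Markers of several cell types moved with the groups. Of 14 fibroblast markers past the filter (POSTN was below it), 7 fell and 1 rose, with a median of -0.55. Among all probe sets 5.37% were called lower and 7.16% higher. COL3A1, PI16, SFRP2 and COL1A2 had the largest changes, from -1.02 to -0.88, PI16 and SFRP2 lost their calls in 5 and 7 of 10 fits with 1 array left out, and the collagens COL1A1, COL1A2 and COL3A1 also stand among the fibrillar collagens. PDGFRA, the 1 that rose, was named after its value was seen and changed by 0.42 (adjusted p = 0.0430). The mean of the 14 markers was 8.42 to 9.05 on neighboring and 8.99 to 9.51 on healthy arrays, with a difference of -0.47 (exact permutation p = 0.0317).

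Members were set against this marker mean on the same array, a comparison added after the data had been seen. OGN changed by -1.28, LUM by -1.12 and PRELP by -0.85 relative to the markers, each without overlap between groups (exact permutation p = 0.00794, adjusted over 6 genes 0.0159). PRELP was read on its brighter probe set. Its dimmer probe set changed by -0.24, less than the marker mean at -0.47, and was not set against the markers. FMOD changed by -0.59 (exact permutation, adjusted p = 0.0595), DCN by 0.28 (0.133) and BGN by 0.07 (0.667). With the 8 arrays of the methods the changes were -1.42 for OGN, -1.30 for LUM, -0.97 for PRELP and -0.76 for FMOD, each without overlap (exact permutation, adjusted p = 0.0429). DCN then had 0.33 (adjusted exact p = 0.171) and BGN -0.098 (adjusted exact p = 0.486). The markers themselves changed unequally, so these values compare genes and do not measure a share of fibroblasts.

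Myoepithelial and smooth muscle markers fell in 4 of 8 genes, with a median of -0.66, where 5.37% of all probe sets were called lower. CNN1 changed by -1.21, OXTR, the oxytocin receptor, by -0.98, MYH11 by -0.73 and KRT17 by -0.59, and their list mean was 8.55 to 9.29 on neighboring and 9.35 to 9.93 on healthy arrays. With 1 array left out, MYH11 lost its call in 9 of 10 fits, KRT17 in 8, OXTR in 4 and CNN1 in 2. With 8 arrays, where 12% of all probe sets were called lower, 6 of the 8 fell. Of 8 luminal epithelial markers EPCAM alone rose (0.61 ± 0.12 SE, adjusted p = 0.0223), with KRT8 below the filter, a list median of 0.45 and list means of 9.74 to 10.4 on neighboring and 9.53 to 9.91 on healthy arrays. The EPCAM call was lost in 3 of 10 fits with 1 array left out (adjusted p up to 0.0650). With 8 arrays, where 17.7% of all probe sets were called higher, 3 luminal markers rose. They were KRT19 by 1.10, EPCAM by 0.72 and CLDN3 by 0.71 (adjusted p = 0.00602, 0.00058 and 0.00658). Of 6 milk protein genes 0 were called, and 0 had an unadjusted p under 0.05. Their values were among the highest of all probe sets, at the top of the scale of the arrays, where a change could hardly show. Whether the amounts of these transcripts differed between the groups can therefore not be told from these values.

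Both neutrophil markers measured, S100A8 and S100A12, calcium-binding proteins that epithelia can make too, rose by 2.61 and 2.28 (adjusted p = 0.00157 and 0.00636), and their mean was 7.17 to 8.66 on neighboring against 4.72 to 5.78 on healthy arrays. Of 5 macrophage markers MSR1, a scavenger receptor, fell by 1.59 (adjusted p = 0.0227) and the other 4 were not called, whereas AIF1 also fell with 8 arrays, by 0.67 (adjusted p = 0.00786). The MSR1 call was lost in 4 of 10 fits with 1 array left out. The macrophage markers had list means of 6.92 to 7.81 and 7.40 to 8.11. Of 5 lymphocyte, 6 endothelial and 2 adipocyte markers past the filter 0 were called by limma, with 3, 1 and 2 at an unadjusted p under 0.05. The share of all probe sets at that unadjusted level is not given here. With 8 arrays, where 12% of all probe sets were called lower, 3 lymphocyte markers fell. They were CD3E by 0.75, CD2 by 0.52 and CD3D by 0.50 (adjusted p = 0.00751, 0.00956 and 0.0206), and 0 endothelial markers were called. The 2 adipocyte markers went opposite ways. FABP4 fell by 1.10 with 8 arrays (adjusted p = 0.000772) and differed by -0.66 with 10. LIPE differed by 0.28 with 8 arrays (adjusted p = 0.101) and by 0.25 with 10. With 10 arrays the medians of the lymphocyte, endothelial and adipocyte markers were -0.34, -0.0044 and -0.21, and the adipocyte markers ADIPOQ, LEP and CIDEC were below the filter. The part of these cell types in the values of the proteoglycans was not tested.

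The hybridization controls moved with the groups as well. With their mean as a covariate, 0 member genes passed limma and 0 of 14409 probe sets were called lower, while 5 member genes were lower at an unadjusted p under 0.05, as were 4.28% of all probe sets, with 4.25% higher. OGN then differed by -1.61 ± 0.25 (SE, adjusted p = 0.0753), LUM by -1.35 ± 0.32 (0.382), PRELP by -1.32 ± 0.32 (0.413) and FMOD by -0.98 ± 0.35 (0.564).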

How the data were processed

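The deposited log2 values, 1 for each probe set of the Affymetrix GeneChip Bovine Genome Array, were made by the authors with RMA (background correction, quantile normalization over arrays, summary over probes), whose version is not given in the sources used here. RNA had been extracted with TRIzol and labelled with the MessageAmp II Biotin Enhanced kit. Quantile normalization hides a change shared by most transcripts, and precision is limited by how many arrays there are. Per the methods of the study, its arrays were hybridized in sets of neighboring and control samples, and some samples were pools of glands.

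Members and gene lists were chosen with earlier results of these data known. Arrays were grouped by title. Array control probe sets (112) did not enter any fit. Of the probe sets, 13318 carried 1 symbol, 86 several and 10724 none here, and of those with 1 symbol 13283 were matched to RefSeq (ARS-UCD2.0) for current names. The study's present calls need probe-level data, so the dimmest 40% of probe sets by mean value were dropped instead. limma 3.58.1 in R 4.3.3 (lmFit, eBayes) was fitted over all kept probe sets, with Benjamini-Hochberg adjustment and calls at an adjusted p under 0.05. A gene was read on its brightest kept probe set. Differences between members were compared by two-sided exact permutation tests over arrays. Named were all members, up to 4 called genes with the largest change per list, and the 5 genes most like OGN, LUM and DCN. The other genes given by name with values below the threshold illustrate lists and were chosen after their values were seen. Alternatives were the 8 arrays of the methods, other filters, scalings, variance models, array weights, a replicate block, a covariate, another threshold, the mean of a gene's probe sets and each array left out. The fit was tested on simulated data. No sequences are shown.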

Additional observations from a re-analysis of the deposited data

Results flagged for a closer look

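In 3 cases a value stood far from the other 4 arrays of their group, among 62 groups of 5 arrays examined, where chance gives about 1 in 20. The dimmer BGN probe set read 7.74 on neighboring 5, against 7.43 to 7.49 on the other neighboring arrays. PI16, a fibroblast marker, read 6.83 on neighboring 4, against 7.59 to 7.84 on the others. OXTR, the oxytocin receptor of myoepithelium, read 6.42 on neighboring 5, against 5.31 to 5.43. Neighboring 5 was nearer to the healthy arrays than the rest of its group in BGN and OXTR, and the cause was not tested.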

How the results depend on the processing

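Of the 6 genes past the filter, 4 fell with all arrays and 4 to 5 under each change of the filter, the scaling, the variance model, the array weights, the probe set rule or the 8 arrays of the methods. With the hybridization controls as a covariate 0 fell, with the threshold of the methods 1 fell, and against the fibroblast marker mean 3 were lower. With each array left out, 2 (without neighboring 2 or neighboring 3) to 5 (without neighboring 5) fell. Without neighboring 2 or neighboring 3 PRELP was not called (adjusted p = 0.0524 and 0.0559), nor was FMOD (0.0551 and 0.0711). OGN and LUM were called in each of the 10 fits with 1 array left out, with adjusted p up to 0.00962 for OGN and 0.0411 for LUM. BGN was called without neighboring 5 (adjusted p = 0.0138), with the lowest 50% left out (0.0494), with arrays centred on the median (0.0409), with cyclic loess (0.0401) and with array weights (0.00984). Against the fibroblast marker mean, DCN (0.28) and BGN (0.066) turned to a positive sign. OGN fell further than 3 genes, also in each fit with 1 array left out (3 to 3), and 4 with the mean of all probe sets of a gene. With the replicate block 4 fell, FMOD at an adjusted p of 0.0496. The replicate numbers are those of separate cows, and deviations of equal numbers correlated by -0.19 to 0.17, so the numbers were not taken as pairs. Counts over all probe sets moved most: 774 lower and 1032 higher became 1735 and 2548 with 8 arrays, 1920 and 2626 with array weights, 447 and 714 with the block, 0 and 1 with the covariate, and from 25 and 16 (without neighboring 3) to 1807 and 2483 (without neighboring 5) with 1 array left out. Among single genes that were named, members included, 114 calls were lost and 155 results held when 1 array was left out. The 155 include results that were not called in either fit, such as those of DCN. The cause was not tested.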
